A study of Rattus norvegicus with 15 samples.

Results

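The mitochondrial respiratory chain and ATP synthase were represented by 33 of the 3757 probes in the table, each for a different one of the 3400 genes named there. A probe was included when its single gene symbol, in the old or the current form, began with Atp5, Nduf, Uqcr, Sdh, Ucp, Vdac, Cyc or Etf, or with Cox followed by the number of a nuclear-encoded complex IV subunit or assembly factor. This gave 4 members of complex I, 1 of complex III, 1 cytochrome c, 6 of complex IV, 13 of ATP synthase, 2 assembly factors, 3 uncoupling proteins, 2 porins and 1 electron transfer flavoprotein. Complex II had 0 probes. Of the 33 members, 2 carry the names of pseudogenes, Ndufs6-ps1 and Cox6c-ps1. Whether their probes also read the parent genes was not tested.

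Transcripts were measured in total RNA from the livers of male rats of the strain Fischer344 (1 control label reads Fischer), taken at 70 weeks of feeding. The 5 control samples came from normal liver of rats on a basal diet. A choline-deficient diet with defined L-amino acids, which leads to fatty liver, cirrhosis and tumours in rats, was given to the rats behind the other 10 samples. Of these, 5 were hepatocellular carcinomas and 5 were noncancerous cirrhotic liver from around such tumours. All rats of these 2 groups therefore shared the diet, and the cirrhotic samples came from livers that held a tumour. The labels say neither that the samples of a group came from separate animals nor that samples with the same number share one, so each p-value reflects only how far these samples spread, which may be technical. In bulk tissue, fewer cells of a type and less RNA per cell cannot be told apart.

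The respiratory chain passes electrons from NADH through complex I, and from other donors through the electron transfer flavoprotein, to complex III, cytochrome c and complex IV, and pumps protons across the inner mitochondrial membrane. ATP synthase lets the protons flow back through its membrane part and makes ATP in its F1 head. Uncoupling proteins let protons or other ions across without making ATP, and porins pass metabolites through the outer membrane. Hepatocytes are rich in mitochondria, and nuclear genes encode most subunits and all members here. Nuclear respiratory factor 1 (NRF-1) and factors of the ETS family, such as GABP, are known to bind the promoters of many of these genes.

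The 250 bases before the start of each gene were searched for both motifs on both strands. RefSeq's GRCr8 promoters were matched for 29 of the 33 members. The core of the NRF-1 motif, searched as GCGCATGCG or CGCATGCGC on the other strand, stood in 3 members (Atp5mc2, Atp5po and Atp5me). That is 10.3% of the member promoters, against 1.49% of 27457 promoters and 1.63% of the 2766 array genes with one. The ETS core CCGGAA, or TTCCGG on the other strand, stood in 9 members, 31.0% against 13.4% of all promoters and 15.2% of the array genes. Those members were Atp5mk, Atp5f1e, Cox7a2, Cox5b, Atp5pf, Atp5me, Uqcrfs1, Atp5f1a and Cox4i1. Both forms of the NRF-1 core overlap in each of the 3 members and were counted once. A match is a description of the sequence and not a bound site. The upstream sequences of 6 of the 7 members with an unadjusted p under 0.05 in a comparison are printed (no promoter was matched for the other, Cox6c-ps1). They run 5′ to 3′ on the gene's strand and end at the base before the gene's start, with any motif in capitals. Whether these sequences bear on the values below was not tested. Atp5f1e, Atp5pf and Uqcrfs1 each carry 1 ETS core, Atp5po carries the NRF-1 core in both overlapping forms, and Cox17 and Ucp1 carry neither.
Atp5f1e, chr3:183680173-183680422, minus strand: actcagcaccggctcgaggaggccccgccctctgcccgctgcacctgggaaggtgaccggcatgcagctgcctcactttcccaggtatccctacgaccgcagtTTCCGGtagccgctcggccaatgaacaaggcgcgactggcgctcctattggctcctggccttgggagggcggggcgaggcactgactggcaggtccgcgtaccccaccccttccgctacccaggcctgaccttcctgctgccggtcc
Atp5pf, chr11:37375102-37375351, minus strand: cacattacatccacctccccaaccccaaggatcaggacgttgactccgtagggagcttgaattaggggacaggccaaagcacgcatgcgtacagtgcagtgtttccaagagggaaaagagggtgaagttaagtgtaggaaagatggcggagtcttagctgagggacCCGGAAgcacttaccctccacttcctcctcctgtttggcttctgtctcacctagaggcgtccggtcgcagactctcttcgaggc
Atp5po, chr11:44657484-44657733, minus strand: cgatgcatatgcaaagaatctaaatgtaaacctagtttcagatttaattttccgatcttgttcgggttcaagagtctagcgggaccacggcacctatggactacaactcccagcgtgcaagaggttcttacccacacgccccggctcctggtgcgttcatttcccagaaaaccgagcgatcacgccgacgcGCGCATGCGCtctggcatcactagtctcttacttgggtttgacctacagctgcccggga
Uqcrfs1, chr17:34186352-34186601, plus strand: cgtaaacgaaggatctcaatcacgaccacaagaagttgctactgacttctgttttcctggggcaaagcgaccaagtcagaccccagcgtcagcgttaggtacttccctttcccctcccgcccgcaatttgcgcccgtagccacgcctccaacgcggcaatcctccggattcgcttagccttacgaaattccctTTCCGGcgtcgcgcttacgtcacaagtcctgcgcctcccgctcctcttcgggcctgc
Cox17, chr11:75912020-75912269, minus strand: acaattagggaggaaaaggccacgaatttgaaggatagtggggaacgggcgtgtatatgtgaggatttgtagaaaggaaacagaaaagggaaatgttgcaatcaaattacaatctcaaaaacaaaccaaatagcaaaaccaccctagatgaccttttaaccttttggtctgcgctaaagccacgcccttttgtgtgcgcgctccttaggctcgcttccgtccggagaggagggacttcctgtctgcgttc
Ucp1, chr19:41721422-41721671, minus strand: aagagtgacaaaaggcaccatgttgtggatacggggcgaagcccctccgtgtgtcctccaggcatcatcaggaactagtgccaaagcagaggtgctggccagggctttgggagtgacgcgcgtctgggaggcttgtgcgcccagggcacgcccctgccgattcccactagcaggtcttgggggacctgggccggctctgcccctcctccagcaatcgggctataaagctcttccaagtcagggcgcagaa

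The capitals begin 147 bases before the start in Atp5f1e, 84 in Atp5pf, 59 in Atp5po and 57 in Uqcrfs1. Members with a motif did not all share a direction in carcinoma against control liver (log2 differences). Of the 9 with an ETS core, Atp5me (-0.32) and Uqcrfs1 (-1.42) lay below 0 and the others above, as Atp5f1e at 1.18. Of the 3 with the NRF-1 core, Atp5mc2 (1.11) lay above 0 and Atp5po (-0.63) and Atp5me below. Over all probes 50.1% lay above 0, and a link between motif and direction was not tested.

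The deposited values were ratios in which 1 is a probe's own median over the 15 arrays, so they show differences between samples and hold no level. Genes could not be ranked by abundance, and the liver label could not be checked against the presence of its markers. The values below are log2 ratios after quantile normalization, and differences are between group means on that scale. A lower limit of 0.01 was reached by 9 of the 495 member values (1.82%), against 1.17% of all values. Control 1 held 6 of these, for Atp5pd, Cyct, Atp5f1c, Cox6c-ps1, Ucp3 and Atp5mk, control 3 held 1 (Atp5mk), cirrhotic 1 held 1 (Atp5mc1) and carcinoma 1 held 1 (Cox6c-ps1). Control 1 and cirrhotic 1 also held the most such values over all probes, 229 and 209. Probes with adjacent numbers shifted together over long runs, so differences are also given after a running median along the numbering had been removed from each array, called detrended below.

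**Figure D1:**
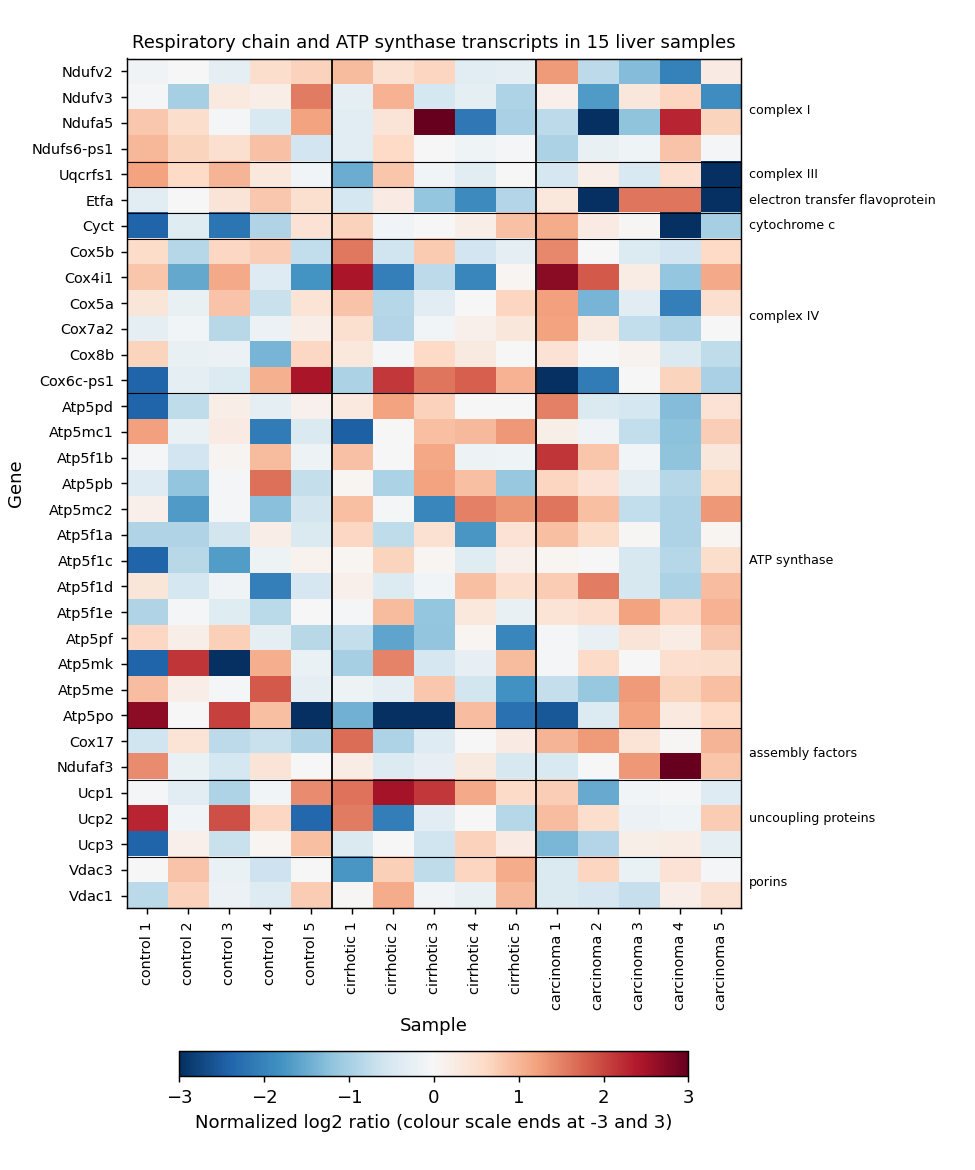
Normalized log2 ratio of each of the 33 members (one horizontal line of cells each, grouped by complex or class) in each of the 15 samples (one column each, grouped by tissue), where red is above and blue below the probe's usual ratio, and the colour scale ends at -3 and 3. No complex is of one colour within a tissue, and deep colours stand beside pale ones within a group, as for Uqcrfs1 at -3.82 in carcinoma 5 and Atp5po at -3.79 in cirrhotic 2 and cirrhotic 3.

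Against control liver, the carcinomas had higher mean ratios of most ATP synthase subunits and lower mean ratios of every complex I probe, but none of these differences passed the test. No member passed an adjusted p of 0.05 in any comparison (limma, Benjamini-Hochberg over all 3757 probes), and neither did any other probe, a share of 0.00% in each comparison. The smallest adjusted p of a member was 0.421 for cirrhotic against control liver, 0.564 for carcinoma against control liver and 0.247 for carcinoma against cirrhotic liver. An unadjusted p under 0.05 was reached by 3 of 33 members in cirrhotic against control liver, where 9.64% of all probes reached it. The count was 3 of 33 in carcinoma against control liver, against 7.40%, and 3 of 33 in carcinoma against cirrhotic liver, against 13.2%. These shares of members lie near or under the shares of all probes. Leaving out single libraries moved the counts. Against control liver, the cirrhotic count was 0 without control 3 (9.42% of all probes), 1 without control 1 (7.53%), control 2 (8.22%) or cirrhotic 2 (9.34%), and 5 without control 5 (14.1%). The carcinoma count was 7 without carcinoma 4, where 9.74% of all probes had such a p. Between carcinoma and cirrhotic liver the count was 5 without cirrhotic 1 (17.9% of all probes) and 6 without carcinoma 1 (15.1%). The median difference over the members was 0.24, 0.075 and -0.033 in these 3 comparisons, with 20, 18 and 16 of the 33 above 0. Over all probes the medians were 0.015, 0.0029 and -0.021, and 50.7%, 50.1% and 49.3% lay above 0. Detrended, the member medians were -0.090, 0.085 and 0.073, so the sign turned for cirrhotic against control liver and for carcinoma against cirrhotic liver. The detrended counts with an unadjusted p under 0.05 were 0, 3 and 1 of 33, against 4.02%, 8.49% and 9.82% of all probes. Detrended, 16, 17 and 18 members lay above 0, against 50.0%, 49.8% and 49.5% of all probes. As deposited, without normalization, the median of all probes itself shifted by 0.13 in carcinoma and by 0.11 in cirrhotic liver against control liver.

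**Figure D2:**
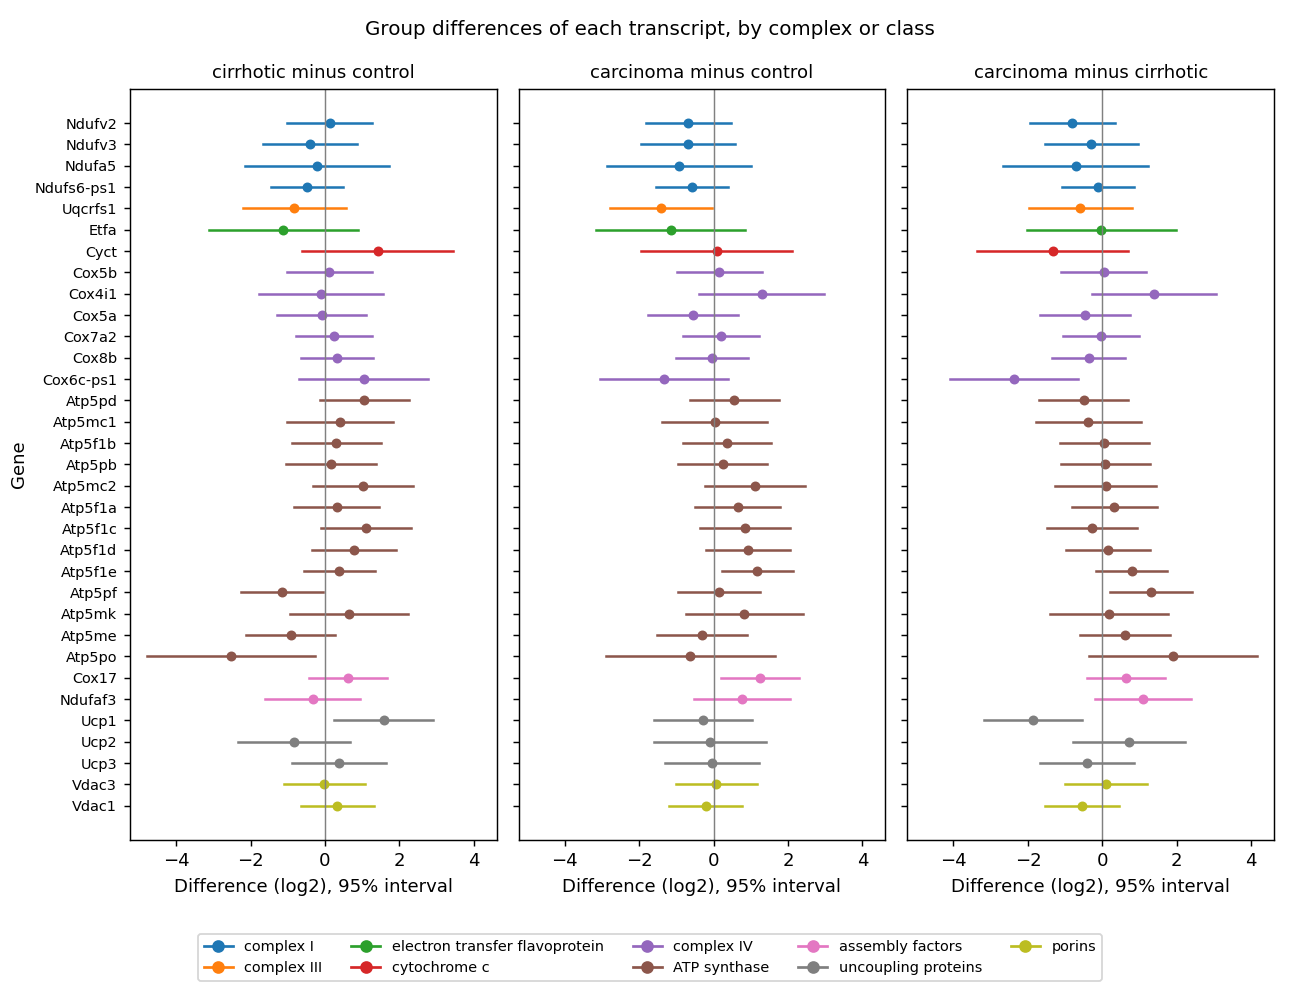
Difference between group means (log2, horizontal axis) for each of the 33 members, with bars for the 95% interval of the fit, in 3 panels for the 3 comparisons and coloured by complex or class. Most intervals span 0, and in the panel of carcinoma minus control 11 of 13 ATP synthase subunits lie to the right of 0 while all 4 complex I probes lie to the left.

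ATP synthase was the best covered complex. In carcinoma against control liver, 11 of its 13 subunits had a difference above 0, with a median of 0.55, and 1 of 13 had an unadjusted p under 0.05. Detrended, 10 of 13 lay above 0 with a median of 0.50, and as deposited 10 of 13 with a median of 0.80. The median of the 13 was 0.22 without carcinoma 1, 0.34 without control 1 and 0.36 over the subunits with no value at the lower limit. Raising low ratios to the 10th percentile of all ratios gave 0.36, and to the 25th percentile 0.29. The 5 subunits of the F1 part (Atp5f1a and Atp5f1b of its head, Atp5f1c to Atp5f1e of its central stalk) all lay above 0. Their median was 0.83 (detrended 0.87, again 5 of 5), and the head subunits Atp5f1a and Atp5f1b differed by 0.64 and 0.36. In the other 8 subunits, those of the outer stalk and the membrane part, the median was 0.20 with 6 of 8 above 0, and 5 of 8 detrended. This split was not among the planned lists, and it overlaps with the probe numbering. All F1 probes have numbers under 2500, from 132 to 1972, where 9 of 9 subunits of the complex lay above 0. The 4 subunits from 2500 on, with 2 of 4 above 0, all belong to the other 8. Whether the part or the numbering goes with the values was not tested. In carcinoma against cirrhotic liver 10 of 13 subunits lay above 0 with a median of 0.14 (detrended 10 of 13 and 0.42). Of the F1 part 4 of 5 did, with a median of 0.14 (detrended 5 of 5 and 0.48). In carcinoma against control liver 8 of 8 hepatocyte markers had differences above 0, where 50.1% of all probes did. The median of the markers was 0.996, with 0 of 8 past the adjusted threshold. Between carcinoma and cirrhotic liver 5 of 8 markers lay above 0, where 49.3% of all probes did, with a median of 0.37 for the markers. In cirrhotic against control liver 6 of 8 did, where 50.7% of all probes did. There the marker median was 0.60, with a range from Ttr at -1.52 to Apoa1 at 2.35. Detrended, the medians of the markers were 0.70 and 1.01 in cirrhotic and carcinoma against control liver, and 0.27 in carcinoma against cirrhotic liver. The median of these markers per sample ran from -1.01 to 0.17 in control liver and from -0.31 to 1.37 in carcinoma, and their part in the ATP synthase values was not tested.

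Atp5f1e, the epsilon subunit of the F1 part, was the 1 member whose carcinoma and control values did not overlap. Its normalized log2 ratios were -0.89, -0.046, -0.37, -0.82 and 0.019 in control samples 1 to 5. In cirrhotic liver they were -0.070, 0.95, -1.17, 0.31 and -0.22, and in carcinoma 0.41, 0.51, 1.20, 0.63 and 1.04. Every carcinoma lay above every control sample, and the cirrhotic values spread over both. As deposited, the ratios were 0.453, 0.964, 0.821, 0.665 and 1 in control liver and 1.58, 1.30, 2.07, 1.34 and 2.80 in carcinoma. The means were 0.75 ± 0.34 (SD, n = 5) and -0.42 ± 0.42 (SD, n = 5), which differ by 1.18 (95% interval 0.22 to 2.13, limma adjusted p = 0.564), higher in 5 of 5 carcinomas and not past the test. Atp5f1e was the only one of the 33 members with such complete separation in any comparison. Among all probes 1.06% separated in that direction, 1.89% in either direction, and 1.65% and 2.71% separated in cirrhotic against control liver and in carcinoma against cirrhotic liver. Detrended, its difference was 1.01 and the groups still did not overlap, where 1.28% of all probes separated in that direction and 2.02% in either. No other member separated when detrended, where 0.452% and 1.36% of all probes did in the other comparisons.

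The catalytic beta subunit Atp5f1b differed by only 0.36 (95% interval -0.83 to 1.55, limma adjusted p = 0.898), with carcinoma values of 2.14, 0.83, -0.079, -1.20 and 0.34. Carcinoma 1 was the highest and carcinoma 4 the lowest, and without carcinoma 1 the difference was -0.076. The alpha subunit Atp5f1a, the other main part of the head, differed by 0.64 (-0.50 to 1.78). For the gamma subunit Atp5f1c, the rotating shaft, the difference was 0.83 (-0.38 to 2.04), with control 1 at the lower limit. The delta subunit Atp5f1d differed by 0.92 (-0.21 to 2.05) and, detrended, by 0.97. Atp5mc2, 1 of the genes for the proton-carrying c ring, differed by 1.11 (-0.24 to 2.46), whereas Atp5mc1, another gene for the same ring, differed by 0.025 (-1.39 to 1.44). The differences below 0 were those of Atp5me at -0.32 and Atp5po at -0.63.

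Atp5po and Atp5pf, both of the stalk that holds the F1 head in place, had the largest differences of the complex in cirrhotic against control liver. The Atp5po ratios were 2.67, 0.018, 2.05, 0.90 and -3.36 in control liver, -1.44, -3.79, -3.79, 0.91 and -2.24 in cirrhotic liver and -2.54, -0.41, 1.22, 0.29 and 0.60 in carcinoma. In cirrhotic liver 4 of 5 values lay under -1, but control 5 was as low, so the groups overlapped. Cirrhotic minus control liver came to -2.52 (95% interval -4.79 to -0.26, limma adjusted p = 0.478), and -1.92 detrended. For Atp5pf the ratios were 0.62, 0.18, 0.71, -0.27 and -0.83 in control liver, -0.72, -1.58, -1.18, 0.049 and -1.95 in cirrhotic liver and -0.032, -0.22, 0.39, 0.23 and 0.81 in carcinoma. Cirrhotic 4 lay among the other groups, and the other 4 cirrhotic samples were low, with control 5 among them. Cirrhotic liver differed from control liver by -1.16 (95% interval -2.27 to -0.056, limma adjusted p = 0.502) and carcinoma from cirrhotic liver by 1.31 (95% interval 0.21 to 2.42, limma adjusted p = 0.306). Detrended, these were -0.60 and 0.80. Both probes sit in a stretch of the numbering where most probes were lower in cirrhotic liver.

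The place in the probe numbering moved with the cirrhotic values of the whole complex. With probe numbers under 2500, 9 of 9 ATP synthase subunits had a difference above 0 in cirrhotic against control liver, where 1625 of 2374 probes did and the median of all probes there was 0.32. From 2500 on, 1 of 4 did, where 281 of 1383 probes did and the median was -0.54. Detrended, the median of the 13 subunits for cirrhotic against control liver dropped from 0.38 to 0.0030, with 7 of 13 above 0. In carcinoma against control liver the numbering moved less, with a median of 0.037 for all probes under 2500, and there 9 of 9 ATP synthase subunits lay above 0 where 1248 of 2374 probes did, and 8 of 9 detrended. From 2500 on, 2 of 4 lay above 0 with a median of -0.084, where 636 of 1383 probes did and their median was -0.088.

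**Figure D3:**
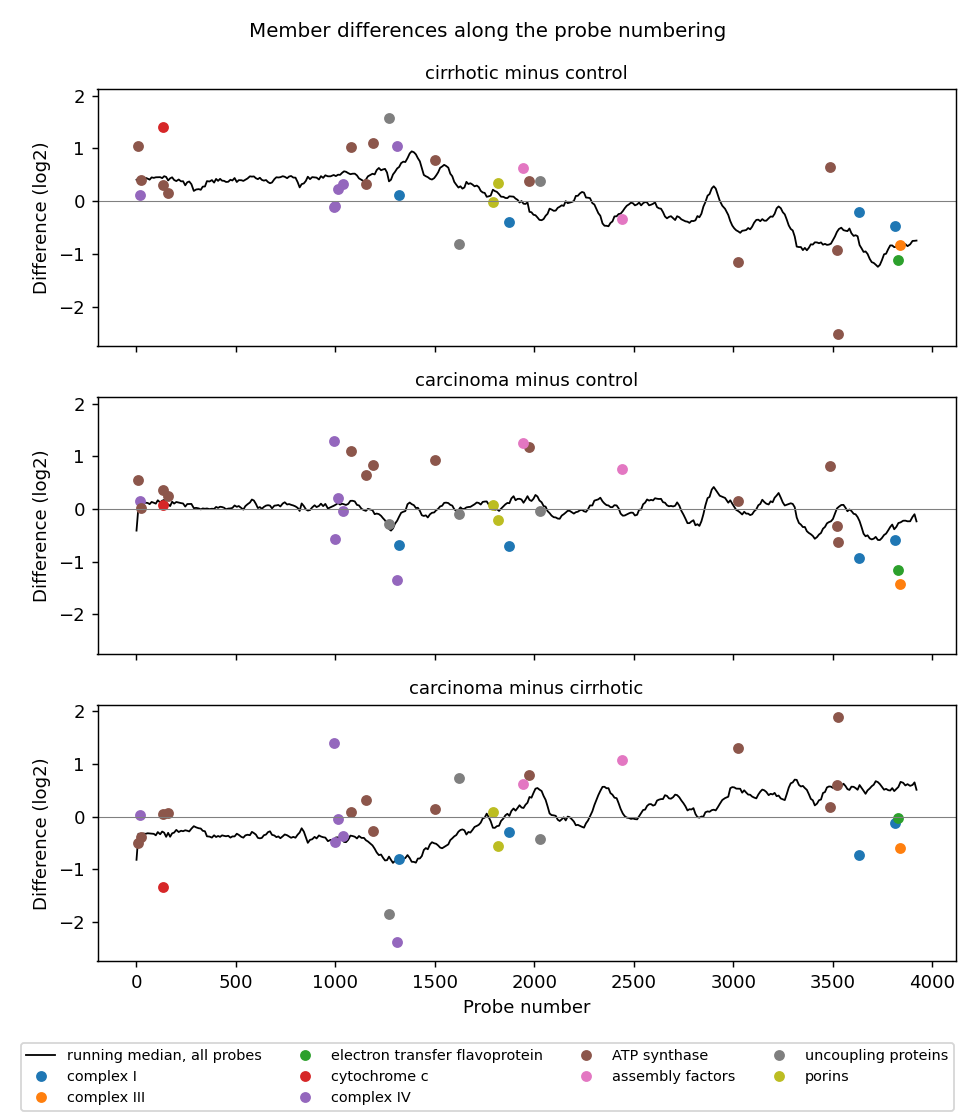
Difference between group means (log2, vertical axis) of each member against its probe number (horizontal axis), in 3 panels for the 3 comparisons, with points coloured by complex or class and a line for the running median of all probes. In the panel of cirrhotic minus control the line runs above 0 for the low probe numbers and below 0 for the highest, and the points of ATP synthase lie on both sides along with it.

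Complex I, the entry point for NADH, and complex III lay on the other side of 0. In carcinoma against control liver, 0 of 4 complex I probes had a difference above 0, with a median of -0.69, and 0 of 4 detrended, with a median of -0.65. The median was -0.45 with a narrower running median removed and -0.29 with low ratios raised to the 25th percentile. Ndufv2 and Ndufv3, of the part that takes electrons from NADH, differed by -0.68 (-1.82 to 0.46) and -0.69 (-1.95 to 0.56). For Ndufa5, an accessory subunit, the difference was -0.93 (-2.88 to 1.01), with carcinoma values of -0.78, -3.58, -1.21, 2.28 and 0.68. Those values lay on both sides of the control range of -0.45 to 1.21. Ndufs6-ps1 differed by -0.59 (-1.55 to 0.38). Between carcinoma and cirrhotic liver 0 of 4 lay above 0 as well, with a median of -0.51. Cirrhotic against control liver had 1 of 4 above 0, with a median of -0.31, and 2 of 4 detrended.

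Uqcrfs1 encodes the Rieske iron-sulphur protein of complex III, which takes electrons from ubiquinol. Its ratios were 1.20, 0.59, 1.03, 0.31 and -0.091 in control liver, -1.49, 0.83, -0.093, -0.34 and 0.0071 in cirrhotic liver and -0.49, 0.21, -0.47, 0.51 and -3.82 in carcinoma. Carcinoma 5 lay far below all other samples. Carcinoma 1 and carcinoma 3 also lay below every control sample, and carcinoma 2 and carcinoma 4 lay within the control range. The carcinoma mean of -0.81 ± 1.73 (SD, n = 5) differed from the control mean of 0.61 ± 0.52 (SD, n = 5) by -1.42 (95% interval -2.80 to -0.040, limma adjusted p = 0.656). Without carcinoma 5 the difference was -0.65, and detrended it was -1.16. Cirrhotic liver differed from control liver by -0.82, a sign that turned to 0.059 detrended.

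Etfa, the alpha subunit of the electron transfer flavoprotein that collects electrons from fatty acid oxidation, was the most scattered member within the carcinomas. Its values there were 0.32, -3.79, 1.60, 1.60 and -4.14, against -0.31, 0.018, 0.39, 0.80 and 0.48 in control liver. Carcinoma 2 and carcinoma 5 lay far below every control sample, while carcinoma 3 and carcinoma 4 lay above every one. The difference was -1.15 (95% interval -3.16 to 0.85, limma adjusted p = 0.798), and with values under the 25th percentile raised to it the sign turned to 0.17. Cirrhotic liver held -0.52, 0.23, -1.16, -1.91 and -0.87, of which 4 of 5 lay below the control samples, a difference of -1.12 (-3.12 to 0.88) and -0.29 detrended. Cyct, the testis form of the electron carrier cytochrome c, was the only cytochrome c probe and differed by 1.42 (-0.62 to 3.45) in cirrhotic against control liver. Its lowest value was -5.40 in carcinoma 4, and control 1 stood at the lower limit. Cycs, the somatic form, and Sdha of complex II had no probe among the members.

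Complex I, complex III and Etfa were joined after their values were seen, as 1 set of 6 probes. In carcinoma against control liver 0 of 6 had a difference above 0, with a median of -0.81, also 0 of 6 detrended (-0.79) and as deposited (-0.70). The median of the 6 per sample was 0.40 ± 0.12 in control liver, -0.15 ± 0.42 in cirrhotic liver and -0.38 ± 0.77 in carcinoma (each SD over n = 5). The control values ran only from 0.27 to 0.59, and carcinoma 4, at 0.75, lay above all of them. Detrended, the control values ran from -0.093 to 0.71, with an SD of 0.32, and the highest carcinoma stood at 0.46, so neither the narrow control range nor that place of carcinoma 4 held. The ATP synthase median per sample was -0.24 ± 0.22 in control liver, 0.021 ± 0.051 in cirrhotic liver and 0.10 ± 0.60 in carcinoma (each SD over n = 5). Here carcinoma 4 was the lowest of all samples at -0.86, while carcinoma 1, carcinoma 2 and carcinoma 5 lay between 0.41 and 0.60. Detrended, the lowest carcinoma stood at -0.26 and the lowest control sample at -0.42, so a carcinoma was no longer the lowest, and the cirrhotic SD was 0.34. No test of these medians was made, because the members were chosen with results known.

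**Figure D4:**
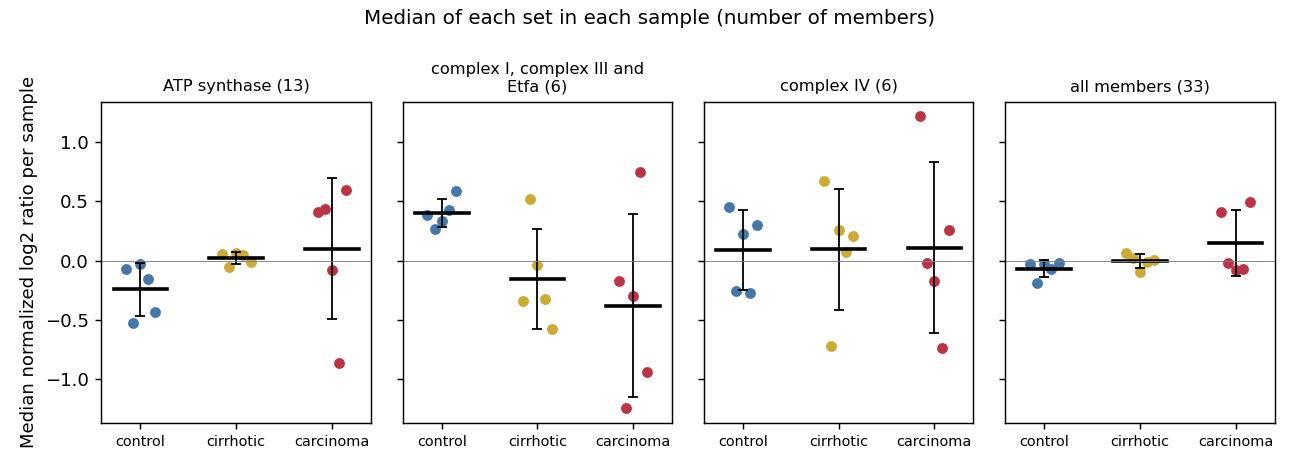
Median normalized log2 ratio of the members of a set in each sample (vertical axis), in 4 panels for ATP synthase (13), complex I with complex III and Etfa (6), complex IV (6) and all members (33), with the group mean as a line and the SD as bars. Carcinoma 4 is the lowest point of the ATP synthase panel at -0.86 and the highest carcinoma of the next panel at 0.75, and the carcinomas are more spread than the control samples in each panel.

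Complex IV, which passes electrons to oxygen, had no common direction as normalized. Its 6 probes had median differences of 0.18 in cirrhotic against control liver (4 of 6 above 0) and 0.057 in carcinoma against control liver (3 of 6). In carcinoma against cirrhotic liver the median was -0.20 (2 of 6). Detrended, all 3 medians turned sign, to -0.30 (1 of 6), -0.025 (3 of 6) and 0.21 (4 of 6). Without Cox6c-ps1 the 3 medians were 0.12, 0.15 and -0.035 as normalized. When detrended, these became -0.32 (0 of 5 above 0), 0.085 (3 of 5) and 0.36 (4 of 5), so that of carcinoma against control liver kept its sign. Over all probes 50.0%, 49.8% and 49.5% lay above 0 when detrended. Cox4i1, a regulatory subunit in all tissues, held 0.83, -1.54, 1.14, -0.38 and -1.80 in control liver, 2.46, -2.06, -0.77, -1.95 and 0.068 in cirrhotic liver and 2.70, 1.83, 0.21, -1.16 and 1.13 in carcinoma. Values near 2.5 occurred in cirrhotic 1 and carcinoma 1, and the groups overlapped. Carcinoma differed by 1.29 (95% interval -0.38 to 2.96, limma adjusted p = 0.731) from control liver and by 1.39 (95% interval -0.28 to 3.07, limma adjusted p = 0.441) from cirrhotic liver, the latter 1.82 detrended. Cox5a and Cox5b, which sit beside the catalytic core, differed by -0.56 and 0.15 in carcinoma against control liver. Cox7a2 and the heart form Cox8b differed by 0.20 and -0.037.

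The largest difference of complex IV belonged to Cox6c-ps1. Its ratios were -2.39, -0.29, -0.41, 1.07 and 2.44 in control liver, -0.94, 2.12, 1.61, 1.78 and 1.04 in cirrhotic liver and -3.88, -2.09, 0.0041, 0.66 and -0.97 in carcinoma. Control liver spanned nearly the whole range of the other groups, with its lowest value and that of the carcinomas at the lower limit. Carcinoma differed from cirrhotic liver by -2.38 (95% interval -4.10 to -0.65, limma adjusted p = 0.25), by -1.68 without carcinoma 1, and by -1.53 detrended.

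Within groups, the 5 complex IV probes other than the pseudogene varied together as normalized, with a median correlation of 0.47 over 10 pairs, all above 0. Over the 78 pairs of ATP synthase subunits the median was -0.0017, and over all pairs of probes -0.0044. These correlations use deviations from the group mean in the same 15 libraries. Cox4i1, Cox5a, Cox7a2 and Cox8b have probe numbers from 994 to 1038, and Cox5b has number 19. Detrended, the complex IV median was 0.044 with 60.0% of pairs above 0, and the cause of this change was not tested. Over all 528 pairs of the 33 members the median was -0.028. The highest of these 528 as normalized, Cox5b and Cox4i1, had 0.85, and 0.77 detrended. The lowest was that of Cox4i1 with the pseudogene Cox6c-ps1, at -0.84, and -0.77 detrended.

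Of the assembly factors, Cox17, the copper chaperone that supplies complex IV, held -0.59, 0.42, -0.79, -0.67 and -0.91 in control liver, 1.69, -0.92, -0.39, -0.012 and 0.25 in cirrhotic liver and 1.02, 1.28, 0.40, 0.026 and 1.03 in carcinoma. Control 2 lay apart from the other 4 control samples and above carcinoma 3 and carcinoma 4, and all 5 carcinomas lay above those 4. The difference between carcinoma and control liver was 1.26 (95% interval 0.21 to 2.30, limma adjusted p = 0.579), and 1.13 detrended. Ndufaf3, an assembly factor of complex I, differed by 0.75 (-0.54 to 2.04) in the same comparison, with a value of 3.11 in carcinoma 4. Both assembly factors lay above 0 in carcinoma against control liver and against cirrhotic liver.

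The uncoupling proteins did not move together. Ucp1, the protein of heat production in brown fat, held -0.026, -0.31, -0.93, -0.071 and 1.42 in control liver, 1.63, 2.50, 2.11, 1.14 and 0.58 in cirrhotic liver and 0.75, -1.52, -0.077, -0.068 and -0.39 in carcinoma. All 5 cirrhotic samples lay above 0.5, and only control 5 and carcinoma 1 reached their range. Cirrhotic liver differed from control liver by 1.58 (95% interval 0.26 to 2.90, limma adjusted p = 0.421) and carcinoma from cirrhotic liver by -1.85 (95% interval -3.17 to -0.53, limma adjusted p = 0.247). Detrended, these were 1.20 and -1.10, in a stretch where most probes were higher in cirrhotic liver. Dio2, the other brown fat gene measured, differed by 0.14 and -0.56 in these comparisons. The table holds no detection call, so whether Ucp1 was expressed in these livers was not tested. Ucp2, the form found in many tissues, differed by -0.82 (-2.33 to 0.69) in cirrhotic and by -0.092 (-1.60 to 1.41) in carcinoma against control liver. Its control values alone ran from -2.36 to 2.29. Ucp3, the muscle form, differed by 0.38 and -0.041.

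The porins Vdac1 and Vdac3 had no difference whose 95% interval left out 0. Vdac1, the main channel of the outer membrane, differed by 0.34 (-0.65 to 1.32) in cirrhotic and by -0.21 (-1.20 to 0.77) in carcinoma against control liver, and by -0.55 (-1.53 to 0.44) in carcinoma against cirrhotic liver. For Vdac3 the differences against control liver were -0.015 (-1.11 to 1.09) and 0.075 (-1.02 to 1.17), and the sign of each turned under some other settings. Intervals this wide do not show that porin transcripts were equal.

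**Figure D5:**
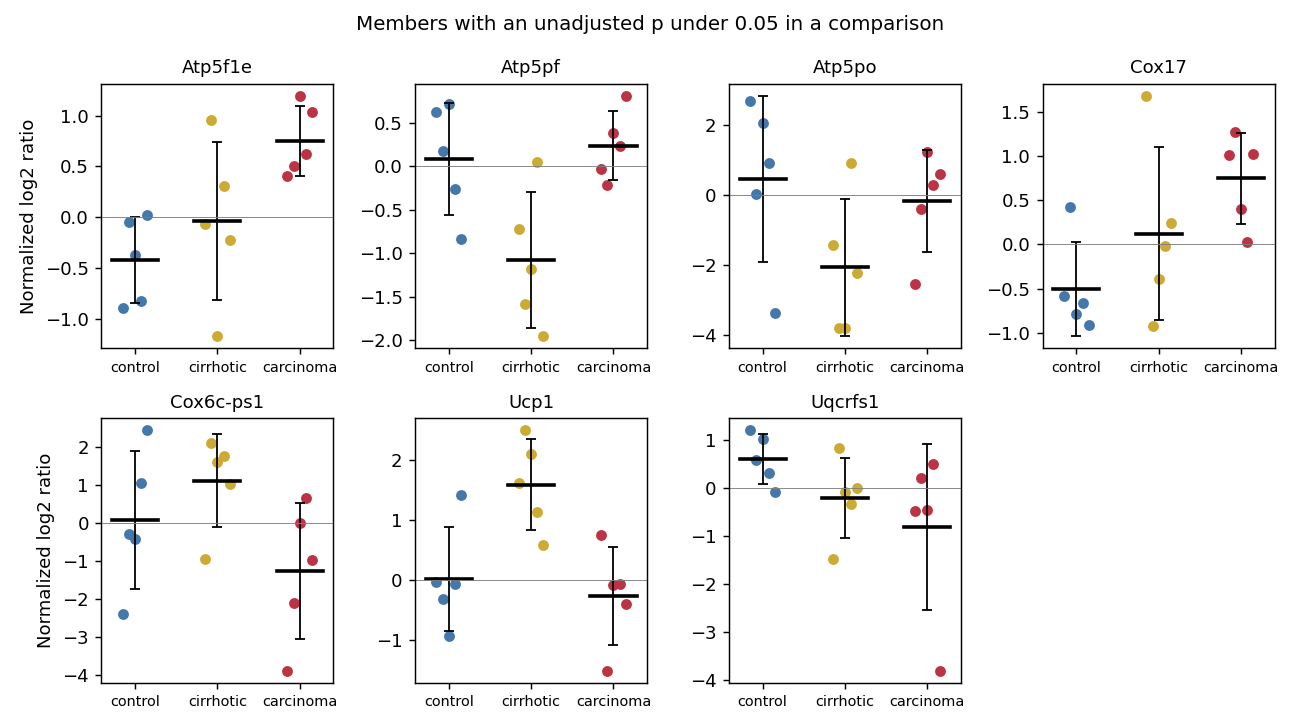
Normalized log2 ratio (vertical axis, its own scale in each panel) of the 7 members with an unadjusted p under 0.05 in a comparison, with one point per sample in control, cirrhotic and carcinoma tissue, a line for the group mean and bars for the SD (n = 5). In the Atp5f1e panel alone all carcinoma points (0.41 to 1.20) lie above all control points (-0.89 to 0.019), and the Uqcrfs1 panel shows carcinoma 5 at -3.82 far below the rest.

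Genes of 4 other lists around mitochondria, some of them for cytosolic proteins, also had 0 past the adjusted threshold. Of the citric acid cycle and pyruvate dehydrogenase list, 10 of 26 genes were measured, and 7 of 10 lay above 0 in carcinoma against control liver with a median of 0.37. The measured genes included the cytosolic enzymes Aco1, Idh1 and Mdh1 and the kinases Pdk1, Pdk2 and Pdk4. The count is therefore not one of the mitochondrial cycle alone. Mdh1, the cytosolic malate dehydrogenase that serves the malate shuttle, differed by 1.39 (95% interval 0.48 to 2.30, limma adjusted p = 0.489) in carcinoma against control liver. The groups were separate, as for 1.89% of all probes. Detrended, the difference was 1.18 and the groups overlapped. Between carcinoma and cirrhotic liver Mdh1 differed by 0.92 with separate groups, as for 2.71% of all probes, and by 0.64 with overlap when detrended. Pc, which makes oxaloacetate from pyruvate, differed by 1.62 (95% interval 0.23 to 3.02, limma adjusted p = 0.315) between carcinoma and cirrhotic liver, and Pdk2, which switches pyruvate dehydrogenase off, by 1.29 in cirrhotic against control liver. Detrended, these were 1.04 and 0.63. Of the inner membrane carriers and mitochondrial kinases 12 of 16 were measured, with 7 of 12 above 0 and a median of 0.17 in carcinoma against control liver. Ak3, a kinase of the matrix, and Slc25a10, the dicarboxylate carrier, differed by 1.37 and -1.23 in cirrhotic against control liver, and by 0.87 and -0.41 detrended. Ak3 also had separate groups in carcinoma against cirrhotic liver, at -1.05, as for 2.71% of all probes. These overlapped when detrended, at -0.69. Slc25a20 of the same list had separate groups only when detrended, at -0.60 in carcinoma against control liver and -0.94 against cirrhotic liver. In these comparisons 2.02% and 1.36% of all probes separated when detrended. Of the regulators of mitochondrial genes 7 of 16 were measured, with 2 of 7 above 0 and a median of -0.060 in carcinoma against control liver. Polg, which copies mitochondrial DNA, differed by -1.61 in cirrhotic against control liver and 1.60 in carcinoma against cirrhotic liver, or -0.78 and 1.03 detrended.

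The list of mitochondrial antioxidant and import genes also holds Cat and Sod1, which are not mainly mitochondrial. Of its genes 17 of 24 were measured, with 8 of 17 above 0 and a median of -0.054 in carcinoma against control liver. Txnrd2, the mitochondrial thioredoxin reductase, differed by 1.52 (95% interval 0.44 to 2.59, limma adjusted p = 0.564) there, with separate groups that stayed separate detrended, at 1.52. In that comparison 1.89% of all probes separated, and 2.02% detrended. Timm13, which guides proteins to the inner membrane, differed by 1.76 (0.24 to 3.28), and Gpx4, which reduces lipid peroxides, by -1.52 (-2.82 to -0.22), or 1.73 and -1.59 detrended. Prdx5, a peroxiredoxin, had separate groups in carcinoma against cirrhotic liver, as did 2.71% of all probes, with a difference of 1.35 (0.37 to 2.34). Detrended, it was 0.99 and the groups overlapped. Among markers of other cells, the stellate cell list had a median of -0.55 in cirrhotic and 0.12 in carcinoma against control liver over 6 genes, the macrophage list 0.22 and 0.66 over 3 genes, the muscle list 0.74 and -0.074 over 3 genes, the endothelial list -0.15 and -0.80 over 2 genes, and the T and B cell list -0.39 and 0.034 over 2 genes. The stellate cell list was split in cirrhotic against control liver, with 3 of 6 above 0, and 1 of 6 detrended. Col1a1 (-1.11), Col3a1 (-1.34) and Vim (-1.37) lay below 0, Pdgfrb (0.74) above, and Acta2 (0.0025) and Tagln (0.010) near it. The endothelial genes Kdr (0.94) and Vwf (-1.24) also lay on opposite sides of 0 in that comparison. Of the T and B cell list, Cd8a (0.45) and Cd3d (-0.39) did so in carcinoma against control liver. Detrended, the medians for cirrhotic and carcinoma against control liver were -0.37 and 0.30 for the stellate cell list, 0.27 and 0.57 for the macrophage list and 0.31 and -0.11 for the muscle list. They were 0.031 and -0.67 for the endothelial list, the first with its sign turned, and -0.080 and 0.10 for the T and B cell list. The muscle list bears on Cox8b and Ucp3, and its part in their values was not tested.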

How the data were processed

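Total RNA of 15 liver samples was measured on arrays, 5 samples per group, with groups taken from the sample titles. The deposited values are a ratio per probe. In the authors' table the median of each of the 3757 probes over the 15 arrays was 1 (tolerance 1e-06), and no value was under 0.01. Array type, dyes, scanner, software and any background correction were not given in the sources used here, and precision is set by having only 15 arrays. The platform annotation lists 1 symbol for 3440 probes, several for 4 and none for 313. Of the 3440, 3429 matched RefSeq's GRCr8 gene table. Every column was used (0 were left aside).

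Ratios were quantile-normalized and put on the log2 scale. One linear model over all 15 samples with group as its term (12 residual degrees of freedom) was fitted in limma 3.58.1 (R 4.3.3) by lmFit and eBayes, allowing for a mean-variance trend. Two-sided p-values were adjusted within each comparison over its 3757 probes (Benjamini-Hochberg). No filter was used, since ratios to a probe's own median do not tell which probes are dim. Detrended values had a running median along the probe numbering removed from each array before the same fit. The NRF-1 core was searched after a longer form of the motif had been tried. Groups are completely separate where no value of one lies within the range of the other.

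The members and lists were chosen with earlier results of these data known. Named were members with an unadjusted p under 0.05 or complete separation, the highest and lowest difference of each class in each comparison, and Cycs, Ucp2, Vdac1, Atp5f1b, Cox4i1, Sdha and Etfa where measured. These rules named 21 members, and the others in the text were named after their values were seen. Up to 4 genes per other mitochondrial list with an unadjusted p under 0.05 were named, and Slc25a20 was added for its detrended separation. The largest correlation between arrays was 0.761, so none was a copy. On simulated data for carcinoma against control liver (3757 probes, 200 changed, 20 draws), the fit recovered 3.1% of 2-fold, 35.9% of 4-fold, 77.0% of 8-fold and 94.2% of 16-fold changes, with 7.05 false calls per draw. Alternatives were the values as deposited, median scaling, detrending (51 probes added after seeing the data), a pseudocount of 0.1, floors at the 10th and 25th percentile, only probes with no value at the lower limit, no mean-variance trend, array quality weights, the replicate number as a block, only the 2 groups compared, and leaving out each sample. Figures were drawn with matplotlib 3.10.9.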

Additional observations from a re-analysis of the deposited data

Results flagged for a closer look

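In 2 of the 99 member groups of 5 samples, 1 sample lay apart from the other 4 by Dixon's measure, where chance gives about 1 in 20. Cox17 in control 2 was the highest of its group at 0.42, where the other control samples lay between -0.91 and -0.59. Uqcrfs1 in carcinoma 5 was the lowest of its group at -3.82, where the other carcinomas lay between -0.49 and 0.51.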

How the results depend on the processing

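No member passed the adjusted threshold under any setting, and the smallest adjusted p of a named member was 0.0926. The number of arrays and the spread within groups limit what could be called. The count of members with an unadjusted p under 0.05 in cirrhotic against control liver, 3 as reported, was 1 as deposited and with median scaling (7.64% and 7.67% of all probes) and 0 with either running median removed (4.02% and 3.89%). In carcinoma against cirrhotic liver it was 1 with either running median removed (9.82% and 9.58% of all probes) and 5 with array weights (20.1%). The median of all members in cirrhotic against control liver was -0.090 with the running median removed, -0.11 with a narrower one over 51 probes (added after seeing the data) and 0.052 over probes with no value at the lower limit. That of ATP synthase was 0.0030 and 0.013 with the 2 running medians removed. The cause of these changes was not tested.

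Of the 21 members named by the rule, these differences turned sign, none of them called, on the log2 scale. With the values as deposited: Cox4i1 0.44 (cirrhotic minus control), Ucp2 0.049, Vdac3 -0.062, Ucp3 0.86 (carcinoma minus control). With array medians set equal: Cox4i1 0.44 (cirrhotic minus control), Ucp2 0.070, Vdac3 -0.041, Ucp3 0.88 (carcinoma minus control). With the wider running median removed: Atp5f1b -0.15, Ndufv2 -0.53, Ndufa5 0.50, Ndufs6-ps1 0.42, Uqcrfs1 0.059 (cirrhotic minus control), Cyct -0.085, Ucp1 0.10 (carcinoma minus control), Atp5f1c 0.28 (carcinoma minus cirrhotic). With the running median over 51 probes removed: Atp5f1b -0.16, Ndufv2 -0.37, Vdac1 -0.067, Ndufa5 0.62, Ndufs6-ps1 0.27, Uqcrfs1 0.055 (cirrhotic minus control), Cyct -0.023, Ucp1 0.032 (carcinoma minus control), Atp5f1c 0.29 (carcinoma minus cirrhotic). With a pseudocount of 0.1: Vdac3 0.019 (cirrhotic minus control), Etfa 0.29 (carcinoma minus cirrhotic). With a floor at the 10th percentile: Cox4i1 0.030, Vdac3 0.045 (cirrhotic minus control), Etfa 0.88 (carcinoma minus cirrhotic). With a floor at the 25th percentile: Cox4i1 0.053, Vdac3 0.22, Ndufa5 0.15 (cirrhotic minus control), Etfa 0.17 (carcinoma minus control), Vdac3 -0.15, Etfa 0.89 (carcinoma minus cirrhotic). With array quality weights: Vdac3 0.28 (cirrhotic minus control), Ucp3 0.013 (carcinoma minus control), Vdac3 -0.22 (carcinoma minus cirrhotic). Without control 1 and cirrhotic 1 together (added after seeing the data): Ndufv2 -0.10, Vdac3 0.40, Ucp3 -0.015, Ndufa5 0.057 (cirrhotic minus control), Cyct -0.28, Ucp2 0.33 (carcinoma minus control), Vdac3 -0.33 (carcinoma minus cirrhotic).

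For the other 12 members only these 2 settings were listed. Signs turned as deposited: Atp5mc1 -0.68 (cirrhotic minus control), Atp5mc1 -0.074 (carcinoma minus control), Atp5mc1 0.61 (carcinoma minus cirrhotic). Signs turned with the wider running median removed: Cox5b -0.32, Atp5pb -0.25, Cox7a2 -0.27, Cox8b -0.21, Atp5f1a -0.090 (cirrhotic minus control), Atp5mc1 -0.027 (carcinoma minus control), Cox7a2 0.36, Cox8b 0.073, Atp5mk -0.39 (carcinoma minus cirrhotic).

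Leaving out 1 sample gave 0 to 5 members with an unadjusted p under 0.05 for cirrhotic minus control, 2 to 7 for carcinoma minus control and 2 to 6 for carcinoma minus cirrhotic, where 7.43% to 14.1%, 5.51% to 9.74% and 8.92% to 17.9% of all probes had one. The median of all members for carcinoma minus cirrhotic ran from -0.26 without carcinoma 1 to 0.14 without carcinoma 3. Probes past the adjusted threshold for carcinoma minus cirrhotic ran from 0 to 2, with 2 without cirrhotic 5. The differences whose sign turned ran, for cirrhotic minus control, Cox4i1 -0.79 to 0.30, Vdac3 -0.30 to 0.40, Ucp3 -0.12 to 0.70, Ndufa5 -1.22 to 0.38, Ndufv2 -0.039 to 0.28. The ranges were, for carcinoma minus control, Cyct -0.43 to 1.20, Ucp2 -0.82 to 0.34, Ucp3 -0.53 to 0.28, Vdac3 -0.083 to 0.29, Ucp1 -0.52 to 0.078, Atp5pf -0.079 to 0.31, Atp5f1b -0.076 to 0.76. They were, for carcinoma minus cirrhotic, Etfa -0.71 to 0.74, Vdac3 -0.33 to 0.38, Atp5f1b -0.37 to 0.45, Ndufs6-ps1 -0.36 to 0.10, Ndufa5 -1.45 to 0.27, Uqcrfs1 -0.95 to 0.16.

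With the replicate number as a block, 2, 4 and 4 members had an unadjusted p under 0.05 in cirrhotic minus control, carcinoma minus control and carcinoma minus cirrhotic, against 9.85%, 7.29% and 13.5% of all probes, and 0 probes passed the adjusted threshold in each. The pairing by number was not established: same-number samples correlated in their deviations from -0.34 to 0.39, above 0.1 in 6 of 15 pairs. The mean of several probes was not run, because each member has 1 probe.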
